A study of Rattus norvegicus with 112 samples.

Results

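The neuronal cytoskeleton genes described here are Nefl, Nefm and Nefh, Map1b, Map2 and Mapt, Gap43, Tubb5 and Tubg1. They were taken as every probe set that the array's annotation gives to 1 of these genes alone. That made 23 of the 1263 probe sets that are not array controls, and 9 of the 720 named genes on a rat neurobiology array. Nefl, Nefh and Tubg1 had 2 probe sets each, Map1b and Mapt 3, Map2 5 and Tubb5 4. Nefm and Gap43 had 1 each. With all arrays used, Nefl was the only member with a call (adjusted p under 0.05): it rose 24 h after NMDA was removed, by 0.52 to 1.58 on a log2 scale, in 3 comparisons. The 1.58 was 1.19 without 1 array unlike the rest of its run. The calls at 1.58 and at 0.52 were each lost under several alternatives. Some of these calls came from RNA that was put on arrays again, and that repeat gave no Nefl call with all arrays. Tubb5 read lower in many arrays harvested 24 h after NMDA, and passed the test only under alternatives (a replicate block, another scaling, or some arrays left out).

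Neurofilaments are the intermediate filaments of neurons and are built from a light chain (Nefl), a medium chain (Nefm) and a heavy chain (Nefh). They fill axons and set their calibre. Microtubules are made of alpha and beta tubulin (Tubb5 is a beta tubulin) and are nucleated by gamma tubulin (Tubg1). Mapt, which encodes tau, and Map1b bind microtubules mainly in axons, and Map2 does so mainly in dendrites. Gap43 is a membrane protein of growth cones. Calcium entry through glutamate receptors of the NMDA class can activate proteases that cut cytoskeleton proteins.

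The RNA came from rat cerebral cortex, described by the labels as primary cortical neurons, on 112 arrays. NMDA, an agonist of that receptor class, was used at 1 mM, and nicotine, an agonist of nicotinic acetylcholine receptors, at 10 uM. A compound called 4R, named as a non-competitive nicotinic antagonist, was used at 2 uM. In the continuous run NMDA stayed on the cells for 10, 30, 60, 180 or 360 min (n = 3 arrays at each time and 3 controls). In the pulse run NMDA was given for 10, 30 or 60 min and washed off, with harvest 24 h later (n = 4 each and 4 controls). Replicate 1 of the 30 min group carries 60 min in another label field. A second set held 1 array of each of these 4 groups. In the crossed run cells got nicotine for 18 h, NMDA for 60 min, both or neither (n = 3). In the washed-out run nicotine for 18 h, NMDA for 30 min, both or neither was followed by washing and harvest 24 h later (n = 5). These 20 samples were put on arrays again after an oven failure, which gave a first run and a repeat run of the same RNA. The last runs compared nicotine for 15 min, harvested 45 min afterwards, 4R for 18 h, and 4R for 18 h washed off 24 h before harvest with their own controls (n = 3 each). Control cells got no agent, as far as the labels say. The age of the animals and the culture conditions were not given. In the pulse and crossed runs the labels give arrays of a group different dates, except that pulse replicates 3 and 4 share a date. What was done on those dates is not said, nor that arrays of 1 group came from separate cultures. The p-values therefore measure the spread between these arrays only.

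Some arrays stood apart from their run by their median correlation with its other arrays. In the pulse run these were replicate 3 of the 10 min group (0.627) and replicate 4 of the 60 min group (0.736), whose ratio of 3' to 5' Gapdh signal, a measure of RNA integrity, was 12.3 against a median of 1.42 in that run. In the repeat of the washed-out run they were control replicate 3 (-0.023) and control replicate 4 (0.506). The same RNA on the first run did not stand apart, and the correlation between both runs was 0.192 and 0.594 for these samples against 0.936 or more for the other 18. In the continuous run both replicates 2 and 3 of the 10 min group and replicate 3 of the 360 min group stood apart, with 2 arrays each in the crossed run and the first washed-out run and 1 in the 15 min nicotine run. Results that rest on these arrays are given with and without them below.

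Control levels of the members spanned the whole range of the array. The values are intensities, and they were not compared between probe sets, whose probes differ in brightness. The 3 Mapt probe sets and Gap43 lay at or above the 98.0th percentile of all probe sets in every run's controls. So did 2 of the Tubb5 probe sets, rc_AA860030_s_at and rc_AA943532_s_at. Nefm lay between the 86.8th and the 91.4th percentile, and Nefl between the 64.2th and the 93.3th over both its probe sets. Nefh was dim, between the 23.4th percentile and the middle of the array, and so was Map2 S74265_s_at, which passed the filter on dim probe sets in 3 runs only. The control mean of 1 probe set differed between runs by 1.38-fold (Tubb5 rc_AA860030_s_at) to 5.13-fold (Map1b X16623cds_s_at), so each comparison was made within a run. Fewer neurons and less of a transcript per neuron cannot be told apart in such RNA.

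**Figure D1:**
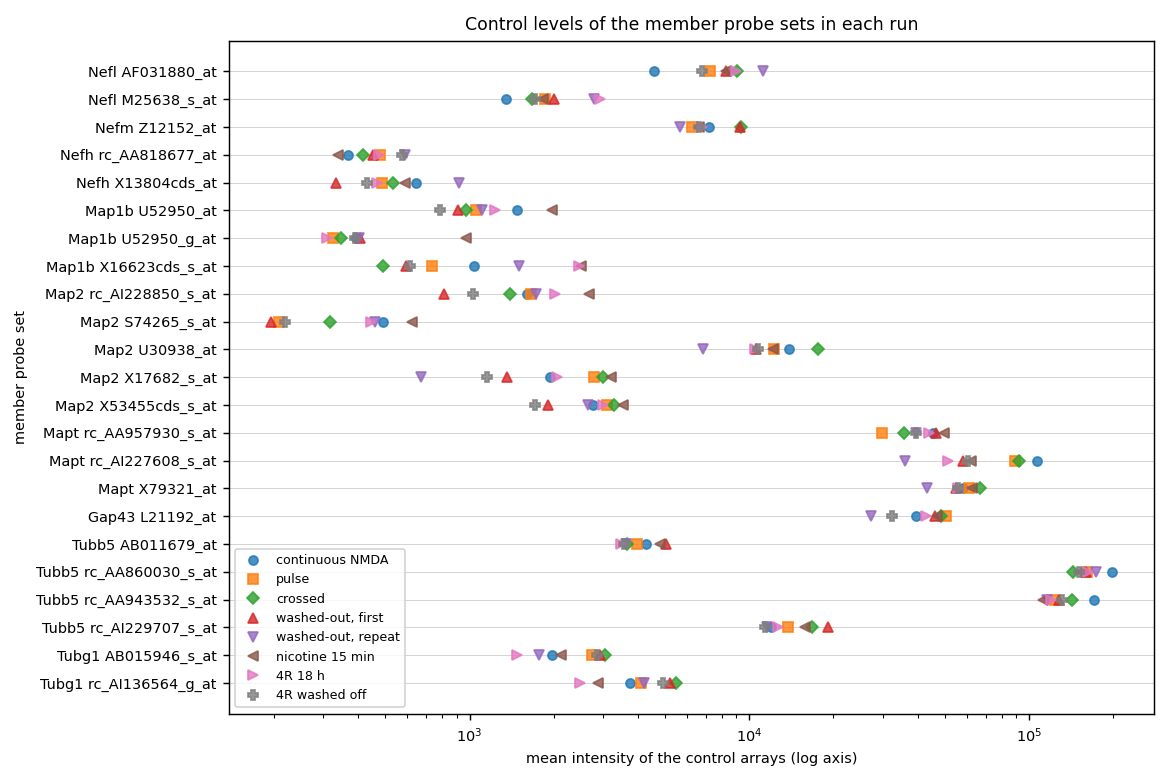
Mean intensity of the control arrays (log axis) for each of the 23 member probe sets, with 1 symbol for each of the 8 replicated runs. Mapt, Gap43 and 2 Tubb5 probe sets sit at the bright end, Nefh and Map2 S74265_s_at at the dim end, and the widest spread between runs is that of Map1b X16623cds_s_at, 5.13-fold.

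The cell type named by the labels was checked against its markers. Of 10 neuron markers on the array (members left out), 8 lay above the 75th percentile in controls, among them Eno2, Camk2b, Syp and Snap25; Camk2a was dim, at the 25.9th percentile. Of 7 astrocyte markers 5 were also above the 75th percentile, led by Apoe at the 98.7th and Glul at the 94.3th. Of 6 oligodendrocyte markers 1 was, and the only microglia marker on the array, Itgam, was below the 30th percentile. The summed level of the neuron markers ran from 92056 to 113711 in the pulse controls, from 68269 to 117308 after 10 min, from 67980 to 98807 after 30 min and from 69211 to 105911 after 60 min. The sum of 117308 came from the 10 min array that stood apart, and the 60 min group holds the other such array of that run. The summed astrocyte markers ran from 48936 to 98822 in those controls and from 33273 to 99991 in the pulsed groups, with the arrays that stood apart included. The part of these markers in the results below was not tested.

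Nefl, the neurofilament light chain, was higher a day after each NMDA pulse. Its probe set M25638_s_at read 2332, 1442, 1853 and 1790 in the 4 controls. It read 3623, 5788, 12731 and 3691 after 10 min, the third of these being the array that stood apart. After 30 min it read 3811, 4813, 3138 and 5846, and after 60 min 5329, 4308, 4431 and 5416. The last of these came from the other array that stood apart, and a repeat array of that sample read 2539. Every pulsed array was above every control. The log2 difference was 1.58 ± 0.38 (SE) after 10 min (adjusted p = 0.0343, limma with Benjamini-Hochberg adjustment). That call was lost with only the groups compared, and without any 1 of control replicates 2 to 4 or NMDA replicate 2. After 30 and 60 min the difference was 1.20 ± 0.38 and 1.38 ± 0.38, which did not pass (adjusted p = 0.214 and 0.112). With all arrays, 1 of 22 member probe sets tested passed after 10 min, against 2.26% of all probe sets. After 30 and 60 min 0 of 22 passed, against 1.36% and 1.58%. At an unadjusted p under 0.05, which chance alone gives for about 1 in 20 probe sets, there were 1 and 2 members.

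The second Nefl probe set, AF031880_at, read 8650, 5112, 7978 and 7215 in the controls. It read 14569, 21702 and 13737 on 3 of the arrays after 10 min and 1294 on the array that stood apart. After 30 min it read 12876, 18713, 12129 and 15981, and after 60 min 14400, 17372, 11876 and 18995. All pulsed arrays but the one at 1294 exceeded the highest control. The 18995 came from the other array that stood apart. Without both arrays that stood apart, the difference of AF031880_at was 1.19, 1.04 and 1.01 after 10, 30 and 60 min (adjusted p = 0.0137, 0.0188 and 0.0461, limma). That of M25638_s_at was 1.19, 1.20 and 1.32 (adjusted p = 0.0186, 0.0111 and 0.00987). Both Nefl probe sets thus passed after each pulse, as the only 2 of 22 members, against 2.6%, 1.7% and 1.81% of all probe sets. The length of the pulse made no difference that passed the test: 60 min minus 10 min was 0.13 ± 0.28 for M25638_s_at and -0.18 ± 0.26 for AF031880_at, without those arrays.

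In the second set, with 1 array a group and no replicate check, M25638_s_at read 2616 in the control and 5212, 5128 and 4029 after 10, 30 and 60 min. AF031880_at read 7719 in that control, then 14782, 16742 and 15157. The log2 differences were 0.98, 0.96 and 0.61 for the first probe set and 0.93, 1.11 and 0.97 for AF031880_at. The median over all probe sets was -0.06, -0.06 and -0.02, and M25638_s_at lay at the 90.3th, 89.7th and 82.5th percentile of all differences. The medium chain Nefm read 9763, then 8930, 9776 and 9719 there. Nefh had no common direction: rc_AA818677_at differed by -0.43, 0.46 and 0.41 and X13804cds_at by 0.16, -0.08 and -0.54.

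Nefl was also higher a day after a 30 min exposure in the first washed-out run. M25638_s_at read 2019, 1878, 2013, 1714 and 2376 in the controls and 4440, 3878, 3709, 2836 and 2733 after NMDA. The groups did not overlap. The log2 difference was 0.78 ± 0.16 (adjusted p = 0.00451, limma). AF031880_at read 8201, 8243, 8443, 7501 and 9022 in the controls and 14407, 14112, 13455, 10508 and 8283 after NMDA, with the last array inside the control range. Its difference was 0.52 ± 0.16 (adjusted p = 0.035). That call was lost without any 1 of control replicates 1 to 4 or NMDA replicates 1 to 3 (adjusted p = 0.0547 to 0.0993), with only the groups compared (0.052) and after centring on array medians, where the difference was 0.25 (0.344). These 2 of 22 members passed, against 13.9% of all probe sets, a share of members no higher than that of the array.

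Cells that had nicotine before NMDA gave the same direction. M25638_s_at read 1903, 2061, 1895, 1894 and 2179 after nicotine alone and 5249, 4152, 4513, 3275 and 2854 after both agents. No array of the second group came down to the first. The difference was 0.96 ± 0.16 (adjusted p = 0.00216), and it was the 1 of 22 members that passed, against 2.04% of all probe sets. AF031880_at differed by 0.56 ± 0.16, which did not pass (adjusted p = 0.0795). Without replicate 5 of each of these groups, the arrays that stood apart, the differences were 1.11 (adjusted p = 0.00061) and 0.63 (adjusted p = 0.0809). Nicotine alone against control gave -0.00 for M25638_s_at, and 0 of 22 members passed, against 0.339% of all probe sets. At an unadjusted p under 0.05, which chance alone gives for about 1 in 20 probe sets, there was 1 member. The NMDA difference did not itself differ with nicotine past the test (0.18 ± 0.22, adjusted p = 0.837).

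The repeat run of the same RNA turned on its controls. There M25638_s_at read 2508, 1428, 5634, 2916 and 1388 in the controls, where 5634 and 2916 come from the arrays that stood apart. It read 4323, 3297, 2706, 2239 and 1992 after NMDA, 974, 1295, 1529, 1101 and 1460 after nicotine and 4124, 4010, 3415, 4260 and 2479 after both. With all arrays the NMDA difference was 0.21 ± 0.33 and 0 of 22 members passed, against 0.226% of all probe sets. At an unadjusted p under 0.05, which chance alone gives for about 1 in 20 probe sets, there was 1 member. Without those arrays the NMDA difference of M25638_s_at was 0.70 ± 0.26 (adjusted p = 0.143, limma). Between nicotine and both agents, groups that hold neither of those controls, no values of M25638_s_at overlapped. Its difference was 1.47 ± 0.33 with all arrays (adjusted p = 0.0862, limma) and 1.48 ± 0.23 without them (adjusted p = 0.00181). In that second form 2 of 22 members passed, against 2.83% of all probe sets. AF031880_at read 7694, 10254, 7741, 6866 and 8685 after nicotine and 13178, 13460, 12536, 9070 and 9786 after both, and these groups overlapped. After NMDA alone it ran from 6544 to 14155, against 5133 to 25310 in the controls. AF031880_at did not pass in either comparison, with or without those arrays.

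**Figure D2:**
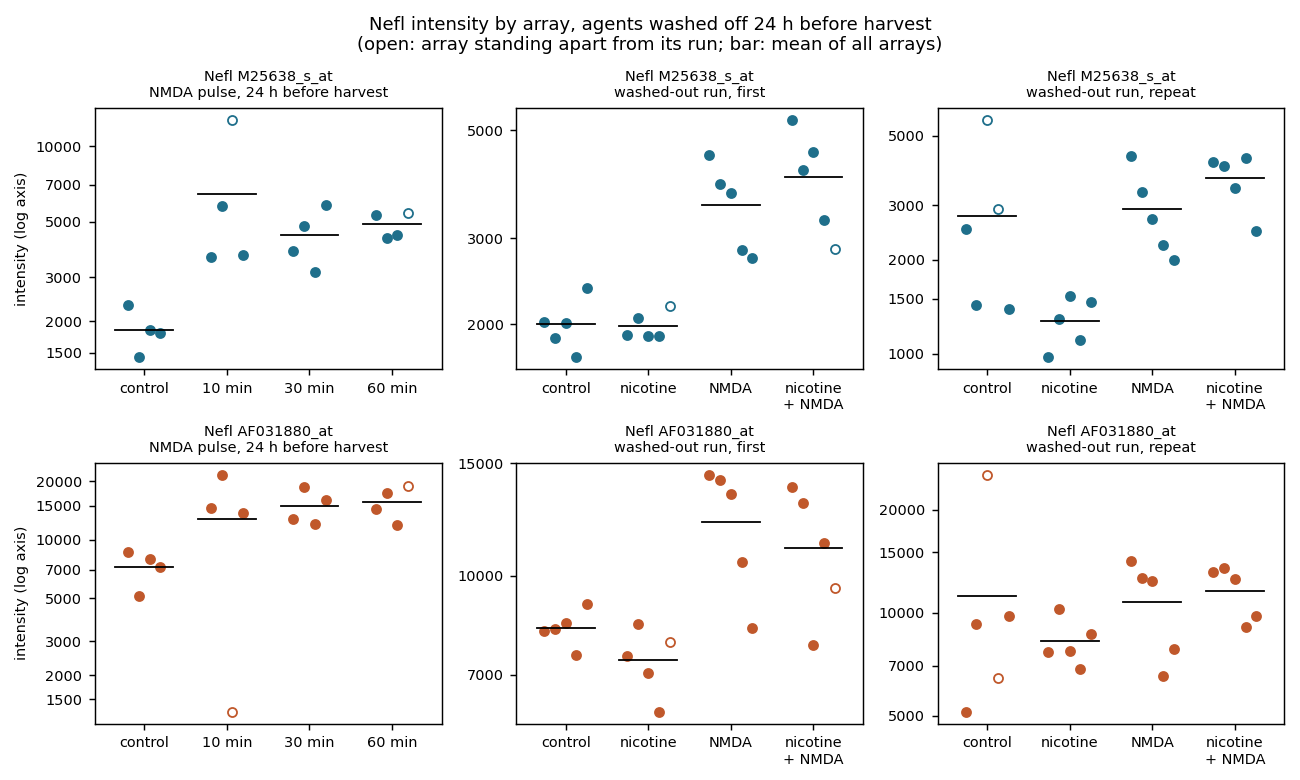
Intensity of both Nefl probe sets by array (log axis) in the pulse run and in both washed-out runs; filled points are arrays, open points are arrays that stood apart, bars are means of all arrays. The NMDA groups sit above controls in the pulse run, M25638_s_at separates fully in the first washed-out run, and the open controls lie high for M25638_s_at in the repeat run.

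The heavier neurofilament chains did not follow the light chain past the test in any comparison with all arrays. Nefm Z12152_at read 3220, 6622, 9954 and 5241 in the pulse controls. It read 4396, 8793, 731 and 7781 after 10 min, 4043, 7022, 9749 and 7365 after 30 min, and 5170, 6505, 10322 and 1184 after 60 min. Both low values, 731 and 1184, came from the arrays that stood apart, and the remaining values overlapped the controls. Without them the Nefm difference was 0.21, 0.22 and 0.28. In the first washed-out run it was -0.13 after NMDA. The Nefh probe sets differed by -0.72 to 0.05 after the pulses without those arrays and by -0.06 and 0.03 in the first washed-out run, with no call.

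Tubb5, the beta tubulin, was lower after the pulses. AB011679_at read 2835, 4507, 4176 and 4401 in the controls. It read 2022, 1948, 2950 and 2983 after 10 min, 1712, 2333, 2633 and 2726 after 30 min, and 1996, 2927, 2682 and 536 after 60 min. The values after 30 min were all below the lowest control, while at 10 and 60 min some arrays lay just inside the control range. The value of 536 came from the array with the Gapdh ratio of 12.3. With all arrays the differences were -0.68, -0.74 and -1.16 (SE 0.43), and none passed (adjusted p = 0.656, 0.999 and 0.423). Without the arrays that stood apart they were -0.77, -0.74 and -0.63.

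Dates in the labels mark a shared day for same-numbered arrays of the pulse run, so a fit with the replicate as a block was also made. In that fit without the arrays that stood apart, AB011679_at fell by 0.74 after 10 min and by 0.74 after 30 min (adjusted p = 0.0382 and 0.02). In the same fit rc_AI229707_s_at fell by 0.90 after each of these pulses (adjusted p = 0.00255 and 0.00115). These and both Nefl probe sets made 4 of 22 members after 10 min and 4 after 30 min, against 5.77% and 4.86% of all probe sets. After 60 min the 2 Nefl probe sets alone passed, against 4.3%.

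The probe set rc_AI229707_s_at read 9097, 15615, 11962 and 18452 in the pulse controls. It read 4707, 7408, 1045 and 10513 after 10 min, 4349, 7793, 7153 and 10355 after 30 min, and 5398, 11490, 9661 and 6975 after 60 min. Within each replicate number every pulsed array was below its control. Both very bright Tubb5 probe sets were lower too: without the arrays that stood apart rc_AA860030_s_at differed by -0.51, -0.43 and -0.56 and rc_AA943532_s_at by -0.43, -0.44 and -0.58, with no call. The suffix s marks probes that can match several transcripts of a family, and 3 of the 4 Tubb5 probe sets carry it, so other beta tubulins may add to their signal. Nefl M25638_s_at carries this suffix as well, and Nefl AF031880_at does not.

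In the first washed-out run rc_AI229707_s_at read 20179, 20587, 17249, 18995 and 18910 in the controls and 12181, 13207, 12936, 14595 and 16150 after NMDA. The groups did not overlap, and the difference was -0.48 ± 0.17 (adjusted p = 0.0695). In the repeat run it read 16928, 17413, 42, 7113 and 16594 in the controls and 10812, 9109, 10808, 8224 and 13124 after NMDA. The control at 42 is the array with a correlation of -0.023, and with it the difference was 1.00 ± 0.91 (adjusted p = 0.52). Without both controls that stood apart it was -0.72 ± 0.14 (adjusted p = 0.0162), the 1 of 22 members that passed, against 1.81% of all probe sets.

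After nicotine the same probe set read 16003, 16046, 15554, 14467 and 17966 in the repeat run, and after both agents 13530, 16523, 15733, 16184 and 18264. Every array with both agents was above every array with NMDA alone. Without the arrays that stood apart this difference was 0.63 ± 0.12 (adjusted p = 0.0413), and it was the only probe set that passed, 0.113% of all. The first run of the same RNA gave 12419, 14622, 6700, 15567 and 14020 after both agents, which overlapped the NMDA group, and a difference of -0.18 ± 0.17 (adjusted p = 1). AB011679_at passed in neither run: NMDA against control gave -0.13 in the first and 0.33 in the repeat. Its control mean over all arrays was 3613 in the repeat, with the controls that stood apart, against 5037 in the first run of the same RNA.

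**Figure D3:**
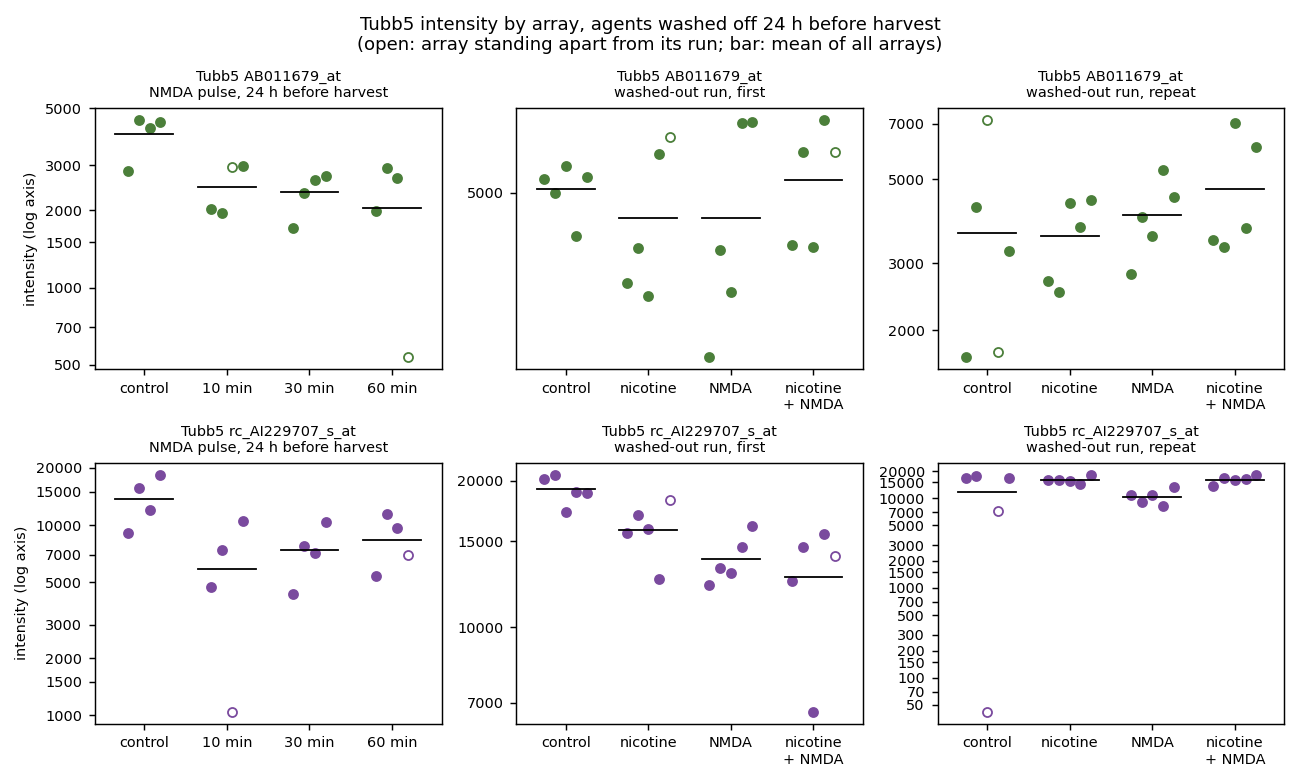
Intensity of Tubb5 AB011679_at and rc_AI229707_s_at by array (log axis), laid out as for Nefl: filled points are arrays, open points are arrays that stood apart, bars are means of all arrays. For rc_AI229707_s_at the NMDA arrays lie below the controls in the first washed-out run, and in the repeat run below the 3 filled controls, while 1 open control lies at 42.

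Tubb5 is shown with the sequence before its start, as a member that passed under alternatives and that the promoter table held. RefSeq's promoter table for GRCr8 matched 4 of the 9 members: Map1b, Map2, Tubg1 and Tubb5. The 250 bases before the Tubb5 start, chr20:2917327-2917576 on the plus strand, are given 5' to 3' with matches to the GC box (GGGCGG, read on either strand) in capitals.
Tubb5: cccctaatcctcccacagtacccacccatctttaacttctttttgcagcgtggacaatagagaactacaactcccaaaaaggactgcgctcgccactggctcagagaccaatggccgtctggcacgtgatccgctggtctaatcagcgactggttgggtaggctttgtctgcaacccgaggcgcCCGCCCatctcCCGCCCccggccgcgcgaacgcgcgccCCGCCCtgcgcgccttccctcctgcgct
The 3 matches lie on the minus strand and begin 66, 55 and 28 bases before the start. A GC box is found in 30.47% of the 33469 promoters in that table. Map1b has TATAAA 48 bases before its start, a word found in 12.93%. None of the 4 windows holds TGACGTCA, TGANTCA, GCGNGGGCG or AAAGGTCA on either strand, words found in 1.59%, 6.34%, 4.29% and 1.24%.

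Mapt, the tau gene, passed the test only under alternatives. After the pulses its 3 probe sets differed by -0.06 to -0.35 without the arrays that stood apart, with no call. In the second set, with 1 array a group, they differed by -0.24 to -0.70. In the repeat run rc_AA957930_s_at read 54488, 54501, 53395, 54492 and 51440 after nicotine and 38693, 42790, 37936, 41139 and 39494 after both agents. The groups lay well apart. The difference was -0.42 with all arrays and did not pass; without the arrays that stood apart it was -0.42 ± 0.07 (adjusted p = 0.00319). In the first run the same RNA gave 42610, 44554, 42258, 43318 and 46523 against 39294, 41015, 41301, 40642 and 40540. These did not overlap either, but the difference was -0.11. The other Mapt probe sets, rc_AI227608_s_at and X79321_at, differed by -0.12 and -0.16 in the repeat run and by -0.03 and -0.07 in the first.

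Scaling mattered for the small differences in the first washed-out run. As deposited, the median of all probe sets was 0.16 higher after NMDA and 0.11 higher after nicotine than in controls, and the array medians of controls (443 to 547) lay below those after NMDA (583 to 622). Relative to each array's median, 1 member was higher after NMDA (Nefl M25638_s_at, 0.51) and 9 were lower: all 3 Mapt probe sets, both of Tubg1, Gap43 and 3 of Tubb5, by 0.32 to 0.75. With that centring 3 members were lower after nicotine, 2 of Mapt and 1 of Tubg1, where 39 of all 884 probe sets were lower and 2 higher. Over all probe sets, 97 were higher and 26 lower after NMDA as deposited, and 33 higher and 148 lower after centring. The direction of Nefl and of these 9 members did not turn between the scalings.

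**Figure D4:**
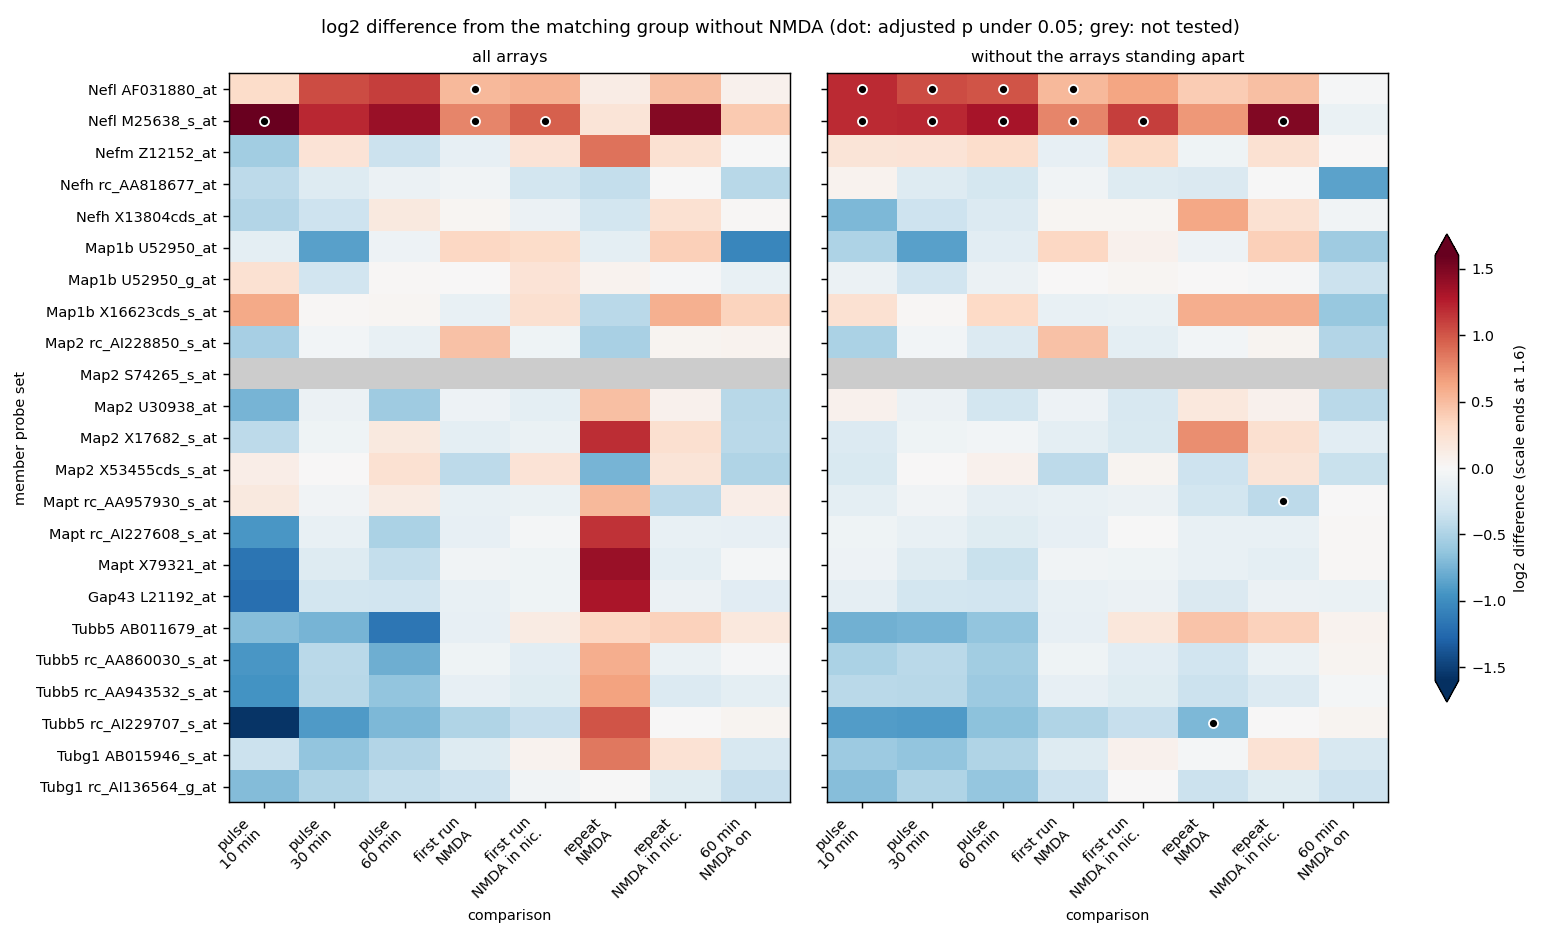
Log2 difference between NMDA-treated and matching cells without NMDA for each member probe set, with all arrays (left) and without the arrays that stood apart (right); dots mark an adjusted p under 0.05 and grey was not tested. Nefl M25638_s_at is red after the pulses, in the first washed-out run and for NMDA within nicotine in the repeat run. With all arrays it is pale for NMDA against control in the repeat run. The differences of Mapt, Gap43 and 3 Tubb5 probe sets in the repeat run turn sign once its 2 controls are left out.

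Gap43 L21192_at read 49780, 54608, 47739 and 49994 in the pulse controls. It read 39180, 43708 and 55128 after 10 min on 3 arrays and 2348 on the array that stood apart. After 30 min it read 38662, 39882, 41918 and 44269, and after 60 min 38363, 45685, 38998 and 40828. All arrays of the longer pulses were below the lowest control, by -0.29 and -0.30 on the log2 scale, without passing the test. The Tubg1 differences in the pulse run were -0.34 to -0.70 over both probe sets with all arrays and -0.48 to -0.68 without those that stood apart, likewise with no call. Over all members 16, 17 and 14 of 22 were below 0 after 10, 30 and 60 min, and their median was -0.50, -0.21 and -0.21, where the median over all probe sets was -0.04, -0.06 and -0.11. Without the arrays that stood apart 16, 17 and 17 were below 0, with medians of -0.18, -0.21 and -0.21 against -0.17, -0.06 and -0.15 over all probe sets.

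While NMDA stayed on the cells, no member passed the test at any of the 5 times. Nefl M25638_s_at read 1393, 970 and 1672 in the controls and between 357 and 3066 over the treated arrays. Its difference ran from -0.70 at 10 min to 0.27 at 180 min, and that of AF031880_at from -0.17 at 10 min to 0.36 at 360 min. The interval of M25638_s_at at 360 min, -1.19 to 1.21 was wide. At 10, 60 and 180 min 0 of 22 members passed in limma's test, against 0%, 0.679% and 0.452% of all probe sets. At an unadjusted p under 0.05, which chance alone gives for about 1 in 20 probe sets, there were 3, 2 and 4 members. At 10 and 180 min all of these were lower, where 6.56% and 1.47% of all probe sets were lower at that threshold.

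Some Map1b, Map2, Mapt and Tubg1 probe sets had an unadjusted p under 0.05 against control in that run. Map1b X16623cds_s_at read 1257, 966 and 885 in the controls and 111, 348 and 171 after 10 min, a difference of -1.99 ± 0.62 (adjusted p = 0.39). The groups did not overlap, and at 30 min the values were 851, 456 and 1451. Without the arrays that stood apart, which leaves 1 array at 10 min that is assumed to vary like the other groups, the difference was -2.13 ± 0.88 (adjusted p = 0.996). Map1b U52950_at read 1638, 1534 and 1243 in the controls and 92, 521 and 1047 after 10 min, with the lowest values on both arrays that stood apart, whose Gapdh ratios were 2.41 and 2.27. Without those it differed by -0.45. With Map2 rc_AI228850_s_at, 3 of 22 members were lower at an unadjusted p under 0.05, against 6.56% of all probe sets.

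At 180 min 4 of 22 members were lower at that unadjusted threshold, against 1.47% of all probe sets: 3 of Map2 and 1 of Mapt. Map2 X17682_s_at read 2266, 1675 and 1896 in the controls and 1553, 1037 and 516 at 180 min, below every control, a difference of -0.96 ± 0.40. At 60 min it read 1156, 1184 and 602, a difference of -0.97 ± 0.40. Mapt rc_AA957930_s_at read 45244, 47228 and 43999 in the controls and 34272, 43950 and 32313 at 180 min, a difference of -0.32 ± 0.15. Their adjusted p was 0.998 at 180 min. No array stood apart at 60 or 180 min, and at 360 min the values of these 4 probe sets overlapped the controls. Tubg1 AB015946_s_at read 1899, 1950 and 2057 in the controls, 2538, 2894 and 2260 at 10 min and 1039, 1568 and 1329 at 360 min, below every control. Its difference from control at 360 min was -0.57 ± 0.24 (adjusted p = 0.51), and -0.71 ± 0.25 without the array that stood apart (adjusted p = 0.333). No pair of times differed in any member past the test, and the lowest adjusted p, 0.112, was that of this probe set between 10 and 360 min (-0.93).

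**Figure D5:**
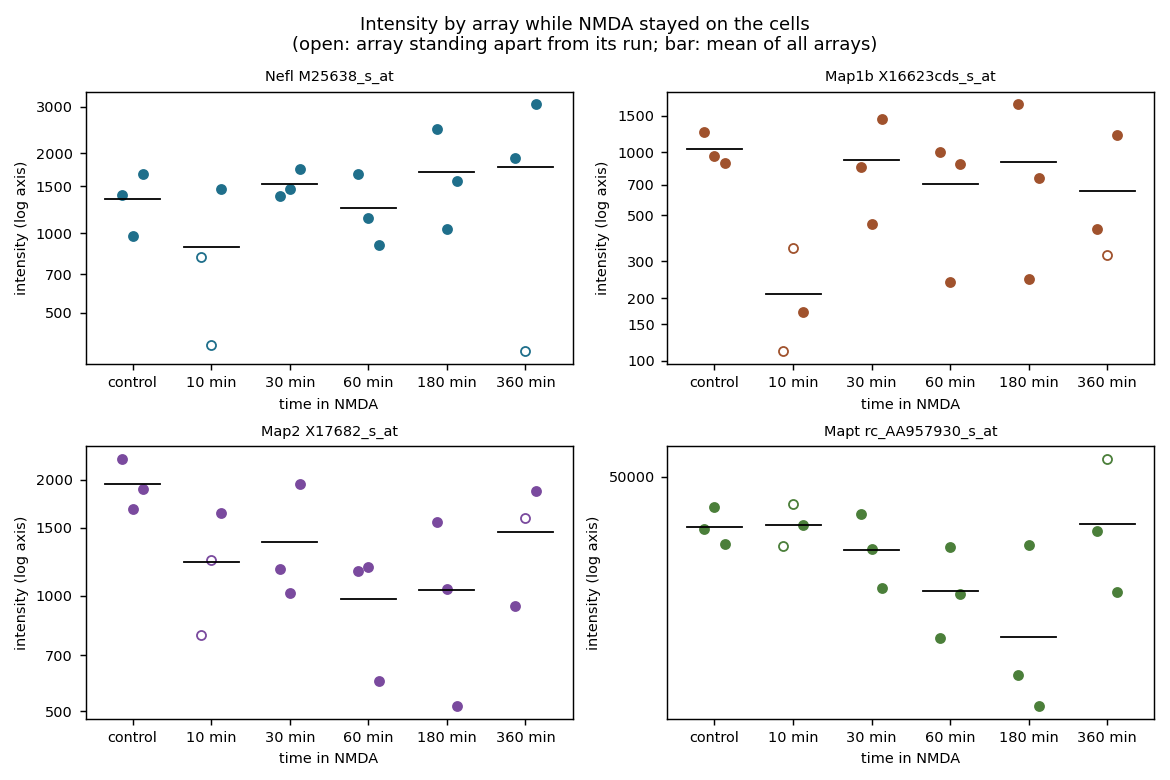
Intensity by array (log axis) against time in NMDA for Nefl M25638_s_at, Map1b X16623cds_s_at, Map2 X17682_s_at and Mapt rc_AA957930_s_at; open points stood apart from the run and bars are means of 3 arrays. Map1b is low at 10 min on all 3 arrays, and Map2 and Mapt are lowest around 60 to 180 min.

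In the crossed run NMDA was on the cells for 60 min at harvest. Nefl M25638_s_at read 2229, 677 and 2117 in the controls, 2015, 1972 and 2004 after NMDA, 2288, 2876 and 2693 after nicotine and 2337, 1724 and 2274 after both. The control at 677 stood apart. The NMDA difference was 0.42 with it and -0.11 without it and its NMDA counterpart. No member of 22 passed for NMDA against control, against 0.905% of all probe sets, or for NMDA within nicotine, against 1.02%. Nicotine for 18 h against control gave 0 of 22, against 0% of all probe sets. These shares are of adjusted calls. At an unadjusted p under 0.05, which chance alone gives for about 1 in 20 probe sets, there were 1, 1 and 2 members.

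The remaining nicotinic comparisons gave no call among members or among all probe sets. After nicotine for 15 min 0 of 23 members passed, against 0% of all. Map1b U52950_g_at read 1324, 805 and 773 in controls and 695, 451 and 494 after nicotine. It was the 1 member at an unadjusted p under 0.05, which chance alone gives for about 1 in 20 probe sets. Its difference was -0.74, or -0.88 without the control of 773, which stood apart. After 4R for 18 h 0 of 23 passed, against 0%. Gap43 read 39625, 40588 and 48438 in controls and 35405, 35360 and 29752 after 4R, a difference of -0.35 (unadjusted p = 0.0293, limma). The groups did not overlap. With 3 arrays a group chance alone can give this, and Gap43 was picked from the 23 members after the values were seen. After 4R was washed off 0 of 22 passed, against 0%, and no member had an unadjusted p under 0.05. The Nefl differences in these 3 runs lay between -0.32 and 0.20.

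Other genes of the cytoskeleton and of its regulation were taken from lists. Of 82 further cytoskeleton genes 8 were on the array, and of 36 kinases, phosphatases and proteases that act on tau or neurofilaments 12 were. After NMDA in the first washed-out run, and judged by each gene's brightest probe set, 1 of 7 tested cytoskeleton genes was lower, Map1lc3b (a light chain of Map1b complexes that also marks autophagosomes), by -0.38 (adjusted p = 0.0179). Of 11 tested genes of the other list 1 was lower, Capn2, the large subunit of a calcium-activated protease, by -0.35 (adjusted p = 0.0199). These counts stand beside the 13.9% of all probe sets called in that comparison. A dimmer probe set of Camk2d, a calmodulin-dependent kinase of the second list, was higher by 0.64 (adjusted p = 0.0266). The medians of the lists were -0.20 and -0.15 where that of all probe sets was 0.16. No gene of either list passed after the pulses, where the cytoskeleton list had a median of -0.02, -0.08 and 0.08 and the other list one of -0.38, -0.11 and -0.02. Among oligodendrocyte markers Mag was higher in that first-run comparison, by 0.71 (adjusted p = 0.0025); its part in the Nefl result was not tested.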

How the data were processed

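RNA of 112 samples in 10 runs was measured on an Affymetrix rat array of 1322 probe sets, of which 59 are array controls. The authors deposited 1 linear intensity per probe set and array. The software and its settings: not given in the sources used here. Each array's mean without the outer 2% was nearly equal, so the deposited intensities had already been scaled and were not scaled again. Probe sets were named from the platform annotation: 1137 had 1 gene, 8 several and 118 none.

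Each run was analysed alone as log2(intensity + offset), the offset being the 10th percentile of its positive values, which understates changes of dim probe sets. Probe sets with a mean below the run's 30th percentile were dropped, which left 884. Group means over all groups of a run were fitted in limma 3.58.1 (R 4.3.3, trended variance) with Benjamini-Hochberg adjustment, and called at 0.05. A check on simulated data used independent noise on each array, with no shared replicate effect and no array that stood apart. It cannot speak to either. Depth is not defined for arrays; their number limits the precision.

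An array stood apart where its median correlation with its run lay over 3 median absolute deviations below the run's median. Same-numbered arrays deviated together (correlation over 0.1) in all 45 pairs of the continuous run and all 3 of the 4R 18 h run. They did so in 20 of 24 pairs of the pulse run and 14 of 18 of the crossed run, and dates in the labels mark a shared day in the pulse, crossed and 4R 18 h runs and for replicates 4 and 5 of the washed-out 4R run.

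Every probe set of a member is drawn in a figure, and the text describes a selection of them. Values by array are given in some runs for Nefl M25638_s_at, Tubb5 AB011679_at and members called with all arrays. Other values by array were chosen after they were seen. The members and lists were chosen with earlier results of these data known. Alternatives were other offsets, filters and scalings, fits of only the groups compared, the replicate block, arrays left out, repeat arrays and the first run. Comparisons of all pairs of times, and of likeness without the arrays that stood apart, were added after seeing the data.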

Additional observations from a re-analysis of the deposited data

Results flagged for a closer look

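Of 264 sets of 4 or 5 arrays of 1 group and member, 26 held an array far from the others of its group; chance alone gives about 1 in 20. In the pulse run, replicate 3 of the 10 min group was low for Nefl AF031880_at (1294), Mapt X79321_at (2786) and Gap43 (2348), and it is the array that stood apart. Control replicate 1 was low there for Map2 X17682_s_at (1930) and Tubb5 AB011679_at (2835). Replicate 4 of the 30 min group was high for Map2 X53455cds_s_at (6068, others 2104 to 2495).

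In the repeat of the washed-out run, 7 came from control replicate 3, another array that stood apart. It was low for Mapt rc_AI227608_s_at (1424) and X79321_at (531), Gap43 (427), Tubb5 rc_AA860030_s_at (4236), rc_AA943532_s_at (3418) and rc_AI229707_s_at (41.9), and Tubg1 rc_AI136564_g_at (1036). Replicate 5 was high for Nefm after nicotine (12404) and after both agents (11970), and low after nicotine for Map1b X16623cds_s_at (49.9). Nefh X13804cds_at was low in nicotine replicate 2 (92.7) and NMDA replicate 5 (78.5), and Gap43 in NMDA replicate 4 (23909).

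In the first run Map1b U52950_at was low (492) and Tubb5 rc_AA860030_s_at high (176955) in control replicate 2. Mapt X79321_at was high in nicotine replicate 4 (64638) and low in NMDA replicate 5 (46635). Gap43 was low in NMDA replicate 1 (35172) and in replicate 3 of both agents (27769), where Tubb5 rc_AI229707_s_at was low as well (6700).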

How the results depend on the processing

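Counts are of member probe sets past the threshold in limma. Without the arrays that stood apart, the pulses gave 2, 2 and 2 after 10, 30 and 60 min where all arrays gave 1, 0 and 0. In the repeat washed-out run they gave 1 for NMDA against control, 2 for NMDA within nicotine and 1 for nicotine within NMDA, each 0 with all arrays. With only the groups compared, the 10 min pulse gave 0, the 30 min pulse 2 and NMDA within nicotine in the repeat run 2. Centring on array medians gave 1 after the 60 min pulse, and in the first washed-out run 10 for NMDA in place of 2 and 3 for nicotine in place of 0. The first run in place of the repeat gave 2 for NMDA and 1 for NMDA within nicotine. Leaving out single arrays gave 0 to 2 after the 10 min pulse: 0 without control replicate 2, 3 or 4 or NMDA replicate 2, and 2 without NMDA replicate 3. It gave 1 to 2 for NMDA in the first run (1 without control replicate 2, 3 or 4 or NMDA replicate 1, 2 or 3; without control replicate 1 the 2 are Nefl M25638_s_at and Tubg1 rc_AI136564_g_at, and with only the groups compared Nefl M25638_s_at and Tubb5 rc_AI229707_s_at) and 1 to 2 for NMDA within nicotine (2 without replicate 3 of both agents). The cause of these shifts was not tested.

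The replicate block gave 4 for NMDA in the first run, adding Tubg1 rc_AI136564_g_at and Tubb5 rc_AI229707_s_at, and 2 for NMDA within nicotine, adding Nefl AF031880_at. The block without the arrays that stood apart gave 4 and 2 there, 4, 4 and 2 after the pulses, and 3, 3 and 1 for the comparisons of the repeat run named above. In both washed-out runs samples share only a number, with 24 of 30 pairs in the first run and 19 of 30 in the repeat over 0.1. The block changed no other count. It also moved the calls over all probe sets. After the pulses, without the arrays that stood apart, their share was 2.6%, 1.7% and 1.81% without the block. With it the share was 5.77%, 4.86% and 4.3%. For NMDA in the first run 13.9% of all probe sets were called without the block, and shares with it are not given here for the washed-out runs. For NMDA against control in the repeat run, Tubb5 rc_AI229707_s_at turned from higher to -0.72 without the arrays that stood apart and to -0.67 with the block as well, and Tubb5 rc_AA943532_s_at to -0.31 with both. Other offsets, filters, quantile normalization and the repeat arrays of the pulse run moved no count by over 1.5 times. Signal limits Nefh and Map2 S74265_s_at, which lie near the filter.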

Other observations

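The genes whose log2 deviations from their run mean were most like those of Nefl M25638_s_at over 84 arrays of 7 replicated runs (the first washed-out run left out) were Bdnf, a neurotrophin (Pearson r = 0.65), Slc2a3, a neuronal glucose transporter (0.54), Gja1, an astrocyte gap junction protein (0.54), and the transcription factors Fos and Fosl2 (0.53 each), out of 650 probe sets of non-members. Over the 74 arrays that did not stand apart they were Bdnf (0.68), Pnoc (0.62), Nr4a3 (0.60), Slc2a3 (0.59) and Penk (0.58). The second Nefl probe set had r = 0.24 over all arrays and 0.67 over these 74. For Tubb5 AB011679_at the most alike were Mmd (0.54) and Pak1 (0.53), and over the 74 arrays Bmyc (0.56) and Agrn (0.52). With the other Tubb5 probe sets, rc_AA860030_s_at, rc_AA943532_s_at and rc_AI229707_s_at, its r was -0.09, -0.13 and -0.00 over all arrays. Over the 74 arrays it was 0.34, 0.31 and 0.50. These values describe arrays that share runs and treatments.

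On repeat arrays of pulse samples, replicate 4 of the 60 min group read 2539 for Nefl M25638_s_at where the first array read 5416, and 13319 for Tubb5 rc_AI229707_s_at where it read 6975. Replicate 3 of the 10 min group gave values within 0.05 of the first array at 1320 of 1322 probe sets, so this pair counts as 1 array.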
